A study of Mus musculus with 18 samples.

Results

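Bone morphogenetic proteins (BMPs) are secreted ligands that bring a type I and a type II receptor together at the cell surface. The type II kinase then activates the type I kinase, which phosphorylates the receptor-regulated Smads. These carry the signal to the nucleus with Smad4, and the Id genes are among the best known direct targets. In cartilage the pathway is known for its part in chondrocyte differentiation, matrix production and joint development. The 10 genes described here were listed by name and cover this route in order. They comprise the type I receptors Acvr1, Bmpr1a and Bmpr1b, the type II receptor Bmpr2, the receptor-regulated Smads Smad1 and Smad5, the inhibitory Smads Smad6 and Smad7, and the target genes Id1 and Id3. They are 10 of the 49184 genes to which transcripts were summed. All 10 passed the filter on low counts in each comparison.

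The RNA came from femoral condyle cartilage caps, which the series text calls medial, of wild-type C57bl6 mice (male C57Bl/6J of 12 weeks in the study's methods). In injured mice the anterior cruciate ligament (ACL) of the right knee was ruptured by a single load of 12 N under isoflurane, with buprenorphine as analgesic. The 18 libraries comprised 3 of injured right knees and 3 of contralateral left knees at day 1, the same at day 7, and 6 of naïve mice that had no procedure and were labelled day 7. Each library is a pool of knees, of 4 mice by the series text. In the study's supplement, pools of 4 are explained by cartilage partly lost at day 7. The methods give 6 mice for each day 1 group, 12 for each day 7 group and 6 naïve mice. For 3 separate pools of 4 mice, 6 mice are too few, so the sources differ on pool size. The naïve mice gave left-knee and right-knee pools, which means that naïve libraries share mice. The injured and contralateral libraries of a day come from the same mice. The study's own model took shared pools into account, but the labels do not tie libraries to pools, and that term could not be fitted here. All libraries were therefore treated as independent, including both knees of a day and the naïve libraries, and the p-values measure only the spread between these pools.

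Totals of estimated counts ranged from 16074762 to 41794005 per library, with a median of 25465706.5. Replicate 1 of the day 7 contralateral group stood apart from the rest. Its 10 genes with the most counts held 42.5% of its counts, against 16.6% to 29.8% in the other 17 libraries, and the calls and correlations that rest on this group are also given without it. Levels between groups are in CPM, counts relative to library size, scaled by the trimmed mean of M values (TMM). Levels of the 10 genes are compared with each other only in TPM, which also corrects for transcript length. The FDR is the Benjamini-Hochberg adjusted p of edgeR's quasi-likelihood test over all genes tested. A gene counted as called where this FDR did not exceed 0.05 and the change reached 1.5-fold. In bulk RNA of this kind, fewer cells of a type and less RNA per cell cannot be told apart.

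The caps carried the defining markers of cartilage. All 10 chondrocyte markers of the list used were above 0 in every library, with Col2a1 the highest in CPM, and their summed level was 5793 ± 1239 CPM (SD, n = 6) in naïve cartilage. Markers of other tissues were also present. The erythroid list, in which the haemoglobin gene Hbb-bs had the highest CPM, summed to 34470 ± 3940 CPM (SD, n = 6) in the naïve libraries. The neutrophil list summed to 12370 ± 1963 CPM and the skeletal muscle list to 5822 ± 2312 CPM there (SD, n = 6). Col1a1 alone had a mean of 12410 CPM there. No gene of the neutrophil, endothelial, osteoblast, synovial fibroblast, macrophage, osteoclast, skeletal muscle, adipocyte or B cell lists was at 0 in any library either. Detection alone thus does not set the chondrocyte markers apart.

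All 3 type I receptors rose at day 7 (gene coordinates are those of GRCm38). Acvr1 (ALK2, chr2:58388644-58567157) had 17.5 CPM in the lowest, 20.2 in the median and 22.4 in the highest of the 6 naïve libraries. The 3 day 7 injured libraries had 44.0, 46.2 and 56.7 CPM. The 3 day 7 contralateral libraries had 20.3, 16.2 and 19.0 CPM. Every injured library at day 7 thus lay above every other library of the series for Acvr1. The log2 fold change was 1.31 ± 0.11 (SE) against naïve cartilage (FDR = 7.3e-07) and 1.40 ± 0.14 against the contralateral knee (FDR = 2.3e-06).

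Bmpr1a (ALK3, chr14:34410734-34503341), which binds BMP2 and BMP4 and is needed for normal cartilage growth, ranged from 39.8 to 61.6 CPM in the naïve libraries, with a median of 49.8. The day 7 injured libraries had 88.2, 102.7 and 108 CPM and the contralateral ones 38.9, 42.0 and 48.6. These groups did not overlap. Bmpr1a rose by a log2 fold change of 1.02 ± 0.11 against naïve (FDR = 8.5e-06) and 1.20 ± 0.14 against contralateral cartilage (FDR = 1.2e-05).

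Bmpr1b (ALK6, chr3:141837136-142169425), the type I receptor that GDF5 prefers, was scarce. It had 38 to 91 estimated counts in the naïve libraries. Its levels there ran from 1.35 to 3.18 CPM, with a median of 2.50. The day 7 injured libraries had 4.95, 5.13 and 6.28 CPM, above all naïve values, and the contralateral ones 1.56, 1.87 and 1.05. The log2 fold change was 1.19 ± 0.27 against naïve (FDR = 0.0035) and 1.88 ± 0.34 against contralateral cartilage (FDR = 6.8e-04). Its standard error was the widest of the 10 genes in both comparisons.

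The type II receptor Bmpr2 (chr1:59763400-59879014) moved less. It had 117 to 156 CPM in the naïve libraries, with a median of 137, and 167, 200 and 222 CPM in the day 7 injured ones. The groups did not overlap. The log2 fold change of 0.53 ± 0.10 passed the FDR limit (FDR = 0.0012) but was 1.445-fold and so under the 1.5-fold limit. Without day 7 injured replicate 1, the lowest of the 3, it was called (0.64, FDR = 5.4e-04). Against the contralateral libraries (77.8, 124 and 134 CPM) it was 0.81 ± 0.17 (FDR = 0.0021). The low value belonged to contralateral replicate 1, and without that library the change was 0.63 ± 0.13 (FDR = 0.0034), still called.

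**Figure D1:**
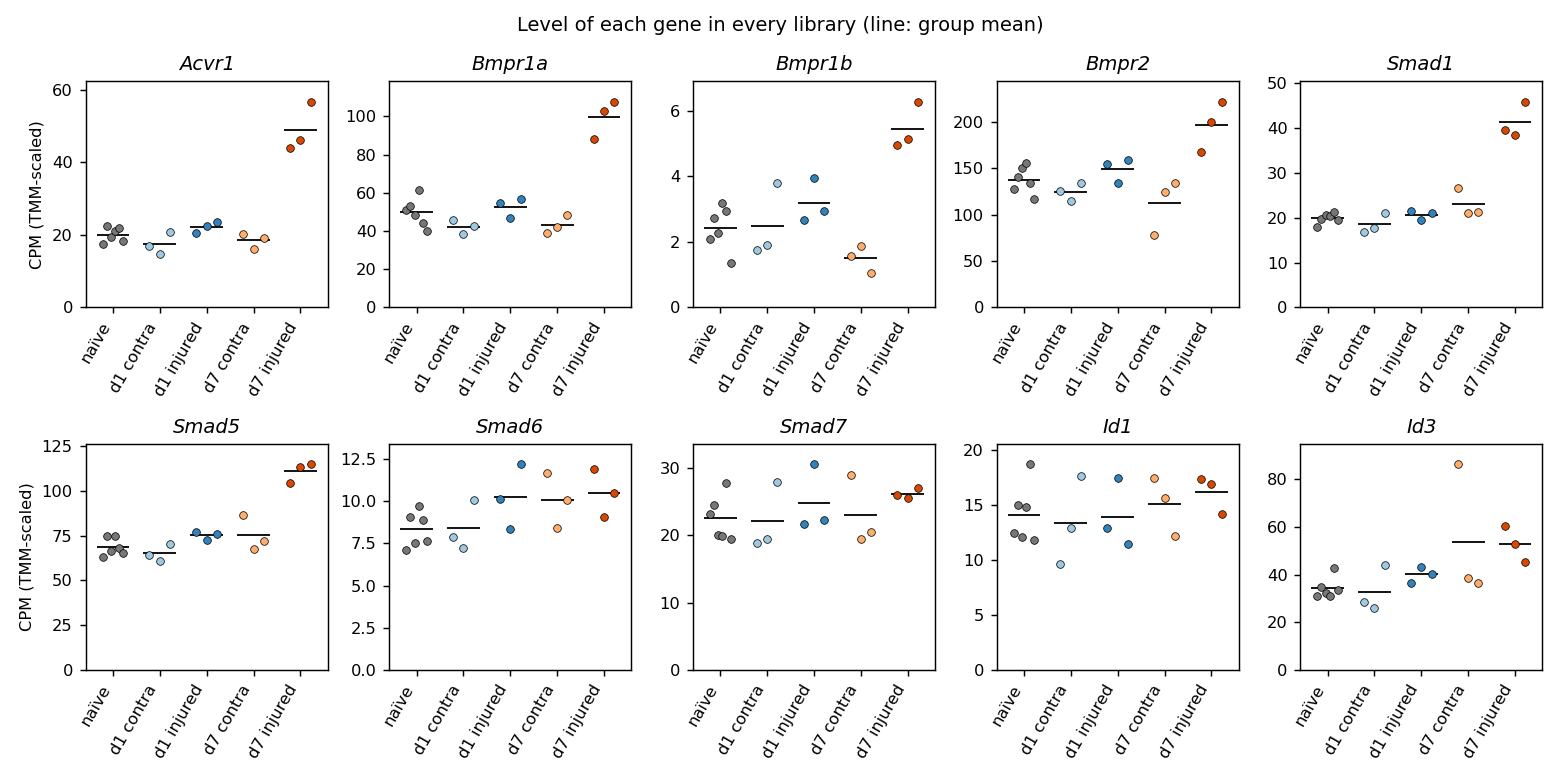
TMM-scaled CPM (vertical axis, from 0) of each of the 10 genes in every library (points) by group, with the group mean as a line. The 3 day 7 injured libraries sit above all others for Acvr1, Bmpr1a, Bmpr1b, Bmpr2, Smad1 and Smad5, whereas the groups overlap for Smad6, Smad7 and Id1, and contralateral replicate 1 at day 7 is the highest point for Id3.

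The receptor-regulated Smads rose together with the type I receptors. Smad1 (chr8:79338395-79399518) had 17.96 to 21.3 CPM in the naïve libraries, with a median of 20.1, and 39.6, 38.4 and 45.9 CPM in the day 7 injured ones. Smad5 (chr13:56703010-56742377) had 63.0 to 75.0 CPM, with a median of 67.3, and 104, 113 and 115 CPM. Neither gene had an injured library at day 7 within the range of any other group. Smad1 rose by a log2 fold change of 1.07 ± 0.09 against naïve cartilage (FDR = 3.4e-07). Smad5 rose by 0.71 ± 0.07 (FDR = 2.8e-06).

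Against the contralateral knee, Smad1 was also called, at 0.85 ± 0.12 (FDR = 5.2e-05). Smad5 passed the FDR limit there (0.56 ± 0.10, FDR = 6.6e-04) but was 1.471-fold. Contralateral replicate 1 held the highest contralateral values of both, 26.7 CPM for Smad1 against 21.0 and 21.2, and 86.7 CPM for Smad5 against 67.3 and 72.1. Without it, Smad5 was called at 0.69 ± 0.09 (FDR = 7.6e-05), as it was without day 7 injured replicate 1 (0.60, FDR = 0.0013), and Smad1 stood at 0.99 ± 0.11 (FDR = 1.7e-05).

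The inhibitory Smads, which block the receptors and compete with the receptor-regulated Smads, did not pass the test in any comparison. Smad6 (chr9:63953076-64022059) had 7.10 to 9.69 CPM in the naïve libraries, with a median of 8.28, and 11.9, 9.05 and 10.5 CPM in the day 7 injured ones. Smad7 (chr18:75367529-75395935) had 19.4 to 27.7 CPM, with a median of 21.6, and 25.9, 25.5 and 26.9 CPM. The groups overlapped for both. The log2 fold change against naïve cartilage was 0.35 for Smad6, with a 95% confidence interval of 0.04 to 0.67 (FDR = 0.084), and 0.24 for Smad7, with an interval of -0.09 to 0.56 (FDR = 0.26). Against the contralateral knee the values were 0.07 (-0.31 to 0.45) and 0.19 (-0.20 to 0.59).

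The Id genes encode inhibitors of basic helix-loop-helix transcription factors. Id3 (chr4:136143497-136145755) had 30.9 to 43.0 CPM in the naïve libraries, with a median of 32.9, and 60.3, 52.7 and 45.2 CPM in the day 7 injured ones, all above the highest naïve value. It rose by a log2 fold change of 0.64 ± 0.15 (FDR = 0.0055). This call was lost without day 7 injured replicate 1, the highest of the 3 (0.54, 1.5-fold not reached), and when all 18 libraries entered the fit (0.62, FDR = 0.0502). The 3 day 7 contralateral libraries had 86.4, 38.7 and 36.4 CPM, and the difference from them was -0.02 ± 0.26 (FDR = 0.97). Without contralateral replicate 1, which held the 86.4 CPM, it was 0.51 ± 0.20 (FDR = 0.088), not called. Id1 (chr2:152736251-152737410) had 11.8 to 18.7 CPM in the naïve libraries, with a median of 13.6, and 17.3, 16.9 and 14.2 CPM in the day 7 injured ones, within the naïve range. Its log2 fold change against naïve was 0.21, with an interval of -0.20 to 0.62 (FDR = 0.44), and against the contralateral knee 0.10, with an interval of -0.37 to 0.57 (FDR = 0.80).

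The promoters of 4 genes are shown because they span the route from receptor to target: Bmpr1a and Smad1, which rose, and Smad6 and Id3, known targets of the pathway of which Id3 alone was called. Each window runs from 250 bases before to 50 after the RefSeq start (GRCm38.p6), 5′ to 3′ on the gene's strand. Capitals mark matches on either strand to GGCGCC or GCCGNC, GC-rich motifs of the kind bound by Smad1 and Smad5, and to GTCTAGAC, the palindromic Smad-binding element. Windows were found for 8 of the 10 genes.
Bmpr1a, chr14:34502497-34502796, minus strand: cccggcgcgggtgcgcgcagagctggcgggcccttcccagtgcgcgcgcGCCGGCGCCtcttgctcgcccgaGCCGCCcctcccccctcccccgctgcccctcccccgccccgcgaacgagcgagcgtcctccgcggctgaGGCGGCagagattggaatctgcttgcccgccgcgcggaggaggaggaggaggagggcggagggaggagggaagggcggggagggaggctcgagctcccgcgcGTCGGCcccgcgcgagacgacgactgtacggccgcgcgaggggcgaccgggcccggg
Smad1, chr8:79399379-79399678, minus strand: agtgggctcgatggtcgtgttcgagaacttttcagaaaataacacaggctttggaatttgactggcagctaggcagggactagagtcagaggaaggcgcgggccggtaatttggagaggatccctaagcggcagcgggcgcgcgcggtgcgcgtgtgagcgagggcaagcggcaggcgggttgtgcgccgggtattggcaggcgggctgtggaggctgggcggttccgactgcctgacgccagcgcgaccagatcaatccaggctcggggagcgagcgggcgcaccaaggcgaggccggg
Smad6, chr9:64022010-64022309, minus strand: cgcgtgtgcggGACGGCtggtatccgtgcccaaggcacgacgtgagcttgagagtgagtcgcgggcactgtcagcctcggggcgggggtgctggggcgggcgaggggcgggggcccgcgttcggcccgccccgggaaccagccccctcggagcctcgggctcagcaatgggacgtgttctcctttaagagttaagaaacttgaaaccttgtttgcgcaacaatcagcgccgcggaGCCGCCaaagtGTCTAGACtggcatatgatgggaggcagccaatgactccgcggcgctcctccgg
Id3, chr4:136143572-136143871, plus strand: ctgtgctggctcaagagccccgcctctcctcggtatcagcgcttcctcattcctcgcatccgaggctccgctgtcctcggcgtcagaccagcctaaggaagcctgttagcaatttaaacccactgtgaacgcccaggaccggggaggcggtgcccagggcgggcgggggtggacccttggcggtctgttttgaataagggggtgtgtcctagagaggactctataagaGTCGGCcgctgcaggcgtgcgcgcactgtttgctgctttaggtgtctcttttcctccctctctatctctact
GCCGNC matched 4 times in the Bmpr1a window, 2 times in that of Smad6, 1 time in that of Id3 and not in that of Smad1. Of all 32851 windows of the table, 33.2% hold it and 11.9% hold GGCGCC, which overlaps the first GCCGNC match of Bmpr1a. GTCTAGAC was found in the Smad6 window, starting 4 bases before the start site, and in 0.213% of all windows. The windows were 79.3% (Bmpr1a), 65.0% (Smad1), 66.3% (Smad6) and 60% (Id3) G or C, against a median of 52.7% over all windows. A match is a description of the letters and not a bound site.

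In all, 6 of the 10 genes were called higher in day 7 injured than in naïve cartilage and 0 lower, beside 10.4% of all 21129 genes tested called higher and 6.11% lower. The 6 were Acvr1, Bmpr1a, Bmpr1b, Smad1, Smad5 and Id3. The median log2 fold change over the 10 genes was 0.67, against -0.04 over all genes tested. Values did not overlap with naïve, all injured libraries being higher, for 7 of the 10 (the called 6 and Bmpr2), as for 17.4% of all genes. When libraries were scaled by their totals alone, the median of all genes moved to -0.35 and the calls over all genes changed from 2207 higher and 1291 lower to 1268 higher and 4556 lower. On that scale 4 of the 10 genes were called (Acvr1, Bmpr1a, Bmpr1b and Smad1), and Smad7 (-0.08) and Id1 (-0.11) changed sign.

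Against the contralateral knee at day 7, 5 of the 10 were called higher (Acvr1, Bmpr1a, Bmpr1b, Bmpr2 and Smad1) and 0 lower, beside 9.33% of 21262 genes called higher and 3.23% lower. Groups did not overlap for these 5 and Smad5, as for 18.6% of all genes. Without contralateral replicate 1 the count was 6, with Smad5 added, beside 9.31% of all genes called higher and 1.99% lower. The type I receptors were then at 1.49 (Acvr1), 1.16 (Bmpr1a) and 1.94 (Bmpr1b), and Smad6 (0.21, FDR = 0.52), Smad7 (0.41, FDR = 0.17) and Id1 (0.24, FDR = 0.58) were still not called. With library totals alone as the scale, 4 of the 10 were called, Bmpr2 being lost (0.61, FDR = 0.076), while the median of all genes moved from -0.05 to -0.19 and the calls over all genes from 1984 higher and 686 lower to 1435 higher (6.75%) and 1305 lower (6.14%). Against injured cartilage at day 1, 3 of the 10 were called higher, and 0 lower, beside 9.04% of all genes called higher and 6.38% lower. These were Acvr1 (1.16 ± 0.14, FDR = 3.2e-05), Bmpr1a (0.94 ± 0.14, FDR = 2.1e-04) and Smad1 (1.02 ± 0.10, FDR = 8.3e-06). Smad5 (0.58, 1.494-fold) and Bmpr2 (0.41, 1.332-fold) passed the FDR limit only (Smad5 reached 0.63 and a call without day 7 injured replicate 1), and Bmpr1b stood at 0.79 ± 0.31 (FDR = 0.076). With library totals alone as the scale, only Acvr1 was called here, while the median of all genes moved from -0.0021 to -0.45 and the calls over all genes from 1910 higher and 1347 lower to 793 higher (3.75%) and 6042 lower (28.6%). The comparisons with naïve, contralateral and day 1 injured cartilage share the same 3 day 7 injured libraries, so they are not independent of each other.

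**Figure D2:**
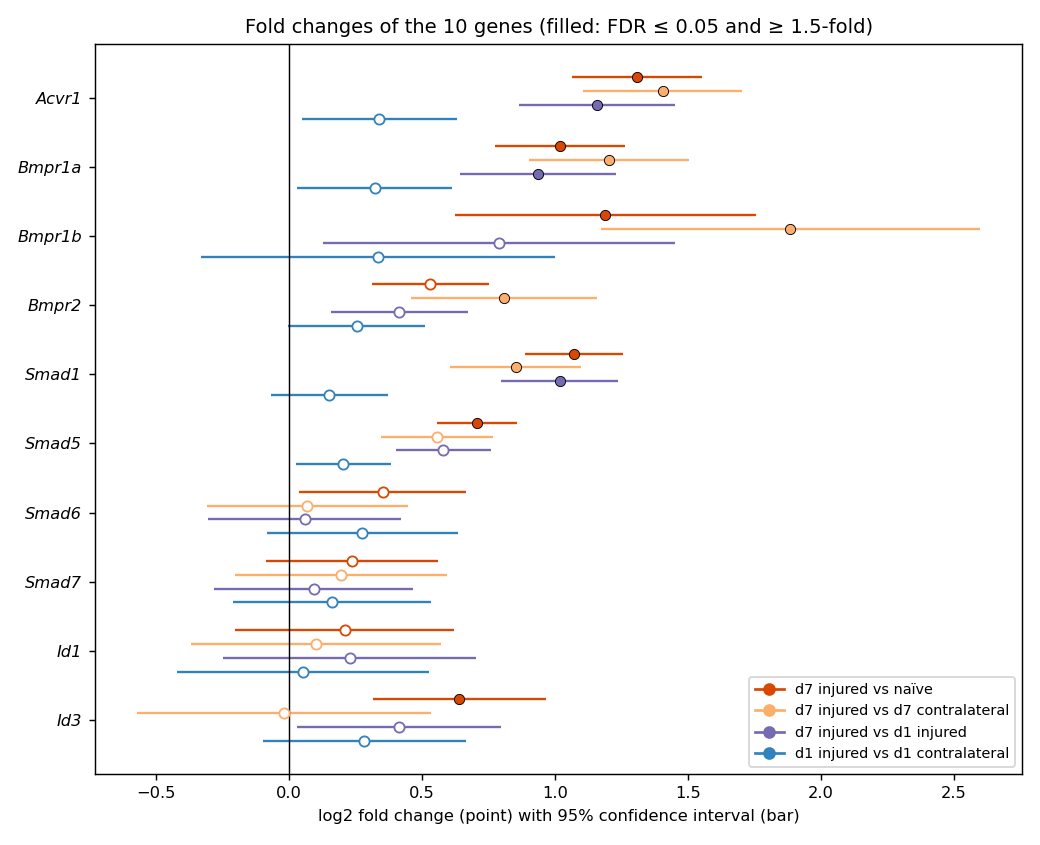
Log2 fold change (horizontal axis) of each of the 10 genes for day 7 injured against naïve, day 7 contralateral and day 1 injured cartilage and for day 1 injured against contralateral cartilage, with 95% confidence intervals from edgeR as bars and filled points where the gene was called. The day 7 changes of Acvr1, Bmpr1a and Smad1 lie between 0.85 and 1.40, while the intervals of Smad7 and Id1 include 0 in all 4 comparisons.

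At day 1 none of the 10 was called between the injured and the contralateral knee, beside 0% of all genes. All 10 log2 fold changes were above 0, from 0.05 for Id1 to 0.34 for Acvr1, with a median of 0.26 against -0.0015 over all genes, and the lowest FDR was 0.76. This was not particular to the 10 genes. Of 54 other genes of the pathway, 50 were above 0. So were all chondrocyte (median 0.295), endothelial, synovial fibroblast, osteoblast (median 0.60), osteoclast, skeletal muscle and adipocyte markers of the lists used. No erythroid, neutrophil or proliferation marker was above 0, and 2 of 8 macrophage and 1 of 5 B cell markers were. Bmpr1a had 54.6, 46.5 and 57.0 CPM in the injured and 45.6, 38.2 and 42.4 CPM in the contralateral libraries, and Smad5 had 76.8, 72.6 and 75.8 against 64.3, 60.6 and 70.1 CPM. For these genes all injured values lay above all contralateral ones, as they did for 5.1% of genes tested. Across all genes edgeR called 0, with 1383 at an unadjusted p under 0.05, and DESeq2 and limma-voom also called 0.

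No member was called between the remaining groups. Day 1 injured against naïve cartilage gave 0 calls among the 10 and 0% of all genes by edgeR, with 959 genes at an unadjusted p under 0.05. The members' log2 fold changes ran from -0.02 to 0.40. Day 1 contralateral against naïve gave 0 calls and 0% of all genes, with 554 genes at an unadjusted p under 0.05 and member values from -0.24 to 0.07. Day 7 contralateral against naïve gave 0 calls and 0% of all genes, with 3220 genes at an unadjusted p under 0.05, and here Bmpr1b (-0.71, FDR = 0.29) and Id3 (0.64, FDR = 0.25) were furthest from 0. Without contralateral replicate 1 the value of Id3 was 0.13 and that of Bmpr1b -0.75, and again 0 of the 10 were called. Over these 3 comparisons limma-voom called 0 genes, and DESeq2 called 15, 2 and 8 of all genes and none of the 10.

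The injury effect at day 7, injured minus contralateral, was set against that at day 1 in a single contrast over all 18 libraries. It was larger at day 7 for 3 of the 10 genes at an FDR of at most 0.05, beside 3.72% of all genes with a larger effect and 4.01% with a different one in either direction. The difference on the log2 scale was 1.06 ± 0.20 for Acvr1 (FDR = 0.0046), 0.88 ± 0.20 for Bmpr1a (FDR = 0.017) and 0.70 ± 0.16 for Smad1 (FDR = 0.022). Bmpr1b had the largest value, 1.55 ± 0.46, and missed the limit (FDR = 0.073). Leaving out 1 library at a time gave 1 to 4 such genes. Only Acvr1 was left without day 1 contralateral replicate 3, day 7 contralateral replicate 2 or day 7 injured replicate 3. In these fits, in that order, 2.05%, 2.54% and 1.82% of all genes had a larger effect. Bmpr1a stood there at 0.86, 0.845 and 0.81 (FDR = 0.051, 0.0505 and 0.057). Smad1 also missed the limit without day 1 injured replicate 1 or 2 or day 7 contralateral replicate 3 (FDR = 0.052, 0.054 and 0.068), and Smad5 passed without day 7 contralateral replicate 1 (0.49, FDR = 0.031). Without day 7 contralateral replicate 1 the differences were 1.16 for Acvr1, 0.84 for Bmpr1a and 0.84 for Smad1, all still past the limit, beside 4.49% of all genes with a larger effect. With library totals alone as the scale, 0 of the 10 passed, beside 1.19% of all genes with a larger and 0.442% with a smaller effect. Acvr1 was then at 0.87 (FDR = 0.056), Bmpr1a at 0.66 (FDR = 0.21) and Smad1 at 0.52 (FDR = 0.15).

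Levels per length differed widely between the genes. In naïve cartilage Id3 had the highest mean, 17.7 ± 3.6 TPM (SD, n = 6), followed by Id1 (9.38 ± 2.08), Bmpr1a (6.33 ± 1.13), Smad5 (5.93 ± 0.47), Bmpr2 (5.76 ± 0.86), Smad7 (4.41 ± 0.92), Acvr1 (4.08 ± 0.42), Smad1 (3.70 ± 0.45), Smad6 (1.64 ± 0.27) and Bmpr1b (0.255 ± 0.079). The ranges of Bmpr1a, Smad5 and Bmpr2 overlapped, as did those of Smad7, Acvr1 and Smad1. Id1 (7.94 to 13.5 TPM) also overlapped Bmpr1a (5.23 to 8.23), and Smad7 (3.14 to 5.88) overlapped Bmpr1a, Smad5 and Bmpr2. Id3 lay above all others in every naïve library, and Bmpr1b below all others. In day 7 injured cartilage the order of the means was Id3 (21.1 ± 0.7 TPM, SD, n = 3), Bmpr1a (10.2 ± 1.7), Id1 (8.61 ± 0.59), Acvr1 (8.13 ± 1.998), Smad5 (7.32 ± 1.32), Bmpr2 (6.57 ± 1.73), Smad1 (5.97 ± 1.29), Smad7 (3.88 ± 0.13), Smad6 (1.61 ± 0.13) and Bmpr1b (0.547 ± 0.138). The ranges of Bmpr1a, Id1 and Acvr1 overlapped there, as did those of Acvr1, Smad5, Bmpr2 and Smad1. Acvr1 and Smad1 had means above that of Smad7 there. Every day 7 injured value of Acvr1 and of Smad1 exceeded every day 7 injured value of Smad7.

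TPM carries no scaling factor between libraries, so these values mainly order the genes within a group. Where groups are set side by side in TPM, this is a description without a test. In day 1 injured cartilage the means were 29.7 ± 6.0 TPM for Id3 (SD, n = 3), 13.4 ± 2.6 for Id1, 10.1 ± 2.7 for Bmpr1a, 9.26 ± 1.54 for Smad5, 9.15 ± 2.12 for Bmpr2, 7.77 ± 2.06 for Smad7, 6.88 ± 1.46 for Acvr1, 5.64 ± 1.17 for Smad1, 3.24 ± 0.84 for Smad6 and 0.553 ± 0.117 for Bmpr1b. In TPM the means of Bmpr1a, Smad1 and Acvr1, which were called higher at day 7 than at day 1 in TMM-scaled counts, lay within 1 SD of those in day 7 injured cartilage, and the means of the other 7 genes were above theirs at day 7. For the 3 called genes the size of the rise thus depends on the scale. In TPM the means of Bmpr1a were nearly equal, at 10.12 ± 2.69 in day 1 and 10.18 ± 1.70 in day 7 injured cartilage (SD, n = 3). Those of Acvr1 and Smad1 stayed higher at day 7. With library totals the 3 genes stood at 0.71 (Acvr1), 0.49 (Bmpr1a) and 0.57 (Smad1). For the other 7 the order of the groups in TPM differed from that in TMM-scaled counts. With library totals Bmpr1b (0.34) and Smad5 (0.13) stayed above 0, and Bmpr2, Smad6, Smad7, Id1 and Id3 changed sign.

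**Figure D3:**
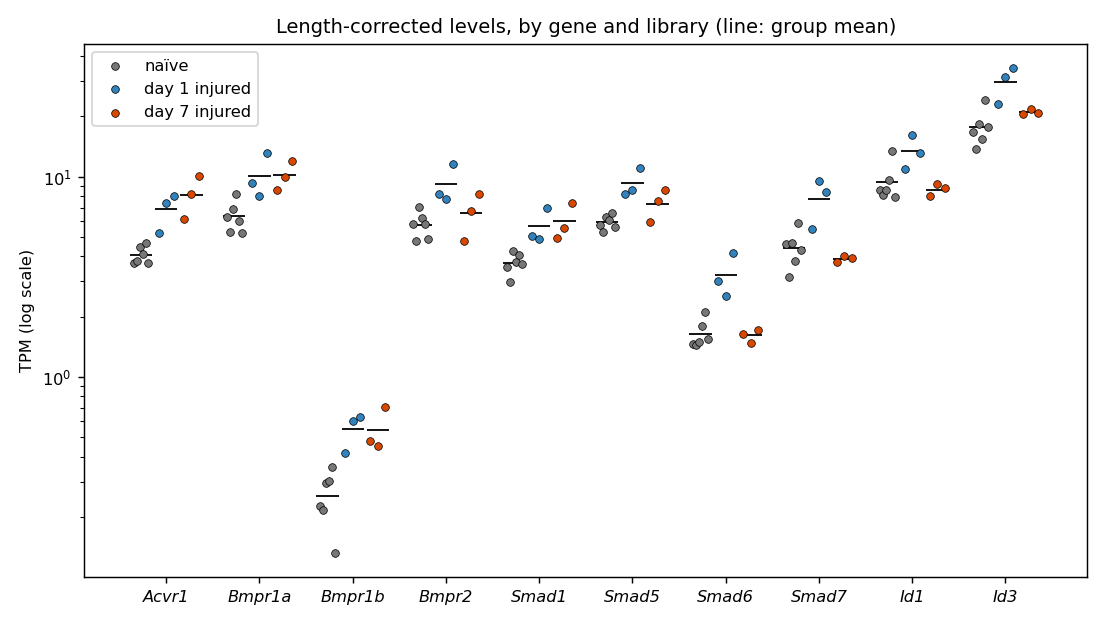
TPM (log scale) of each of the 10 genes in the naïve (grey), day 1 injured (blue) and day 7 injured (orange) libraries, with group means as lines. Id3 is the most abundant and Bmpr1b the least in all 3 groups, and the 3 day 7 injured values of Smad7 lie within the naïve range.

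Among the type I receptors, Bmpr1a made up 59.1 ± 3.7% of the summed TPM in naïve cartilage (SD, n = 6), Acvr1 38.5 ± 3.6% and Bmpr1b 2.36 ± 0.56%. In day 7 injured cartilage the shares were 54.3 ± 2.1%, 42.8 ± 2.2% and 2.90 ± 0.40% (SD, n = 3), within or near the naïve ranges of 54.5% to 65.0%, 32.6% to 42.3% and 1.47% to 3.22%. The balance between classes of genes moved further. The ratio of type I receptors to Bmpr2 was 1.65 to 2.03 in the naïve libraries, with a median of 1.88, and 3.20, 2.75 and 2.78 in the day 7 injured ones. In the day 7 contralateral libraries it was 3.51, 1.70 and 1.90, the first being replicate 1.

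The ratio of inhibitory to receptor-regulated Smads, (Smad6 + Smad7) to (Smad1 + Smad5), was 0.555 to 0.753 in the naïve libraries, with a median of 0.608, and 0.495, 0.418 and 0.353 in the day 7 injured ones. The contralateral libraries had 0.937, 0.620 and 0.612. The 3 injured values at day 7 were the lowest 3 of the series, with or without contralateral replicate 1. The ratio of Id1 and Id3 to Smad1 and Smad5 overlapped between groups, at 2.55 to 3.54 in the naïve and 2.62, 2.37 and 1.85 in the day 7 injured libraries. Ratios within a library do not depend on how libraries were scaled, but ratios of TPM do depend on the length correction. In contralateral replicate 1, with 0.937 in TPM, Smad6 and Smad7 summed to 40.65 CPM and Smad1 and Smad5 to 113.4 CPM. Such ratios show unequal change, not which of their members moved, and they were built from genes already described, so no test is given.

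**Figure D4:**
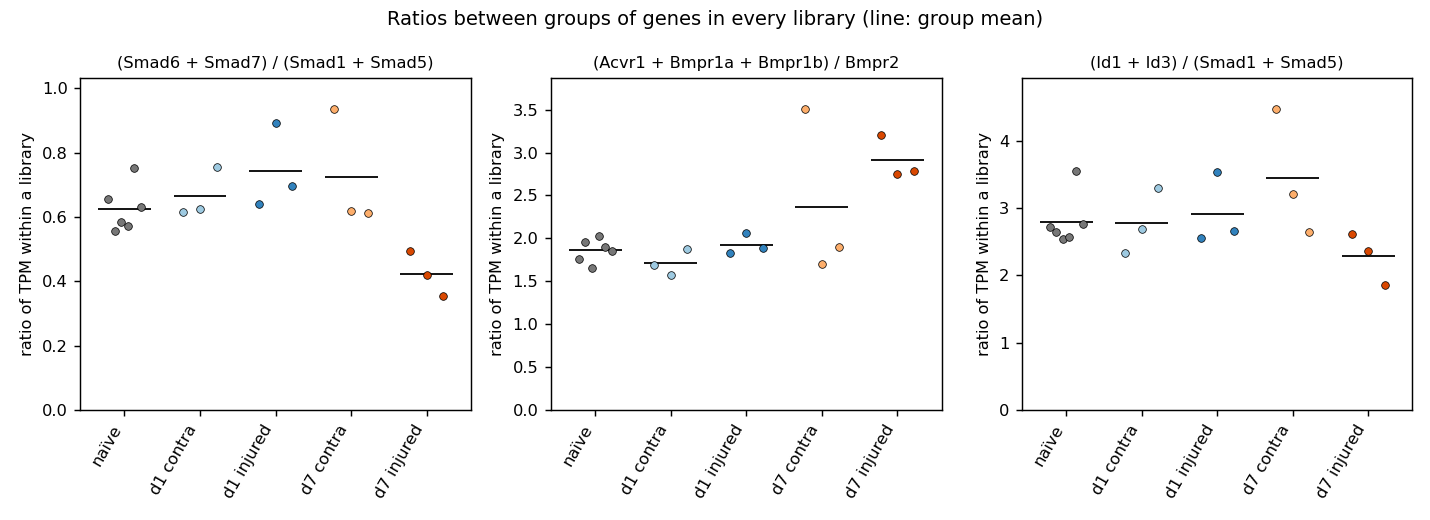
Ratios of summed TPM within a library (vertical axes, from 0) by group, with group means as lines. The 3 day 7 injured libraries have the lowest 3 ratios of inhibitory to receptor-regulated Smads (0.353 to 0.495), and contralateral replicate 1 at day 7 has the highest point in each panel.

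Most of the signal came from protein-coding transcripts. The main Bmpr2 transcript, of 13 exons, held 93.6% of the gene's TPM in naïve, 96.0% in day 7 contralateral and 97.1% in day 7 injured cartilage, and the rest lay in retained introns. Coding transcripts held 88.4% to 94.9% of Smad1 in the naïve and 95.5% to 97.8% in the day 7 injured libraries, but 90.2% to 98.2% in the day 7 contralateral ones, a range that encloses the injured values. For Smad5 the share was 88.7% to 96.5% in the naïve, 96.5% to 100% in the day 7 injured and 96.8% to 100% in the day 7 contralateral libraries, so that both knees of day 7 lay above the naïve values. Acvr1 was spread over several coding transcripts, and the 10-exon Acvr1-203 held 22.6 ± 2.9% of its TPM in naïve (SD, n = 6) and 34.3 ± 2.1% in day 7 injured cartilage (SD, n = 3). Its share ran from 0 to 43.7% in the day 7 contralateral and from 20.6% to 41.6% in the day 1 injured libraries, ranges that enclose the day 7 injured values. Id3 carried a retained-intron transcript at 14.2% of its TPM in naïve, 9.13% in day 7 contralateral and 14.3% in day 7 injured cartilage. Shares of transcripts that overlap one another are estimates of the pseudo-aligner and were not tested.

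The rest of the pathway was read from a list of 56 genes, of which 54 could be tested (Hjv and Sostdc1 could not). In day 7 injured against naïve cartilage 19 were called higher and 1 lower (all genes tested gave 10.4% and 6.11%), and the median log2 fold change was 0.43. Against the contralateral knee 17 were higher and 1 lower (20 and 1 without contralateral replicate 1). With library totals alone as the scale the counts were 11 higher and 4 lower against naïve and 14 higher and 1 lower against contralateral cartilage. Of the 9 ligands tested, only Gdf5 and Gdf7 were called, both growth factors of joint and tendon development. Gdf5 went from 0.411 ± 0.172 CPM (SD, n = 6) to 5.80 ± 1.62 CPM (SD, n = 3), a log2 fold change of 3.81 ± 0.32 (FDR = 5.2e-07), and had 3 to 16 counts in the naïve libraries. Gdf7 changed by 2.80 ± 0.39 (FDR = 6.4e-05). Bmp2 (0.18), Bmp4 (0.51, FDR = 0.083), Bmp6 (0.07) and Bmp7 (-0.40, FDR = 0.11) were not called.

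Extracellular antagonists and modulators held more calls than any other list of this pathway, with 6 of 10 higher and 1 lower. Fstl1, a secreted BMP-binding glycoprotein, changed by 2.71 ± 0.21 (FDR = 1.8e-07) and Nbl1 (Dan) by 2.10 ± 0.18 (FDR = 5.3e-07). Bmper, Chrd, Fstl3 and Twsg1 were the others, between 1.23 and 1.66. Sost, the osteocyte gene for sclerostin, fell by 0.95 ± 0.22 (FDR = 0.0049). Noggin (Nog, 0.20) and Grem1 (-0.47, FDR = 0.099) were not called.

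Of the 6 coreceptors tested, 4 were higher, led by neogenin (Neo1, 1.29 ± 0.11, FDR = 4.8e-07), a receptor for repulsive guidance molecules, with Rgma, Rgmb and endoglin (Eng). Of 6 other receptors only Tgfbr2 was called (0.83 ± 0.08, FDR = 1.4e-06). Acvrl1 (ALK1), the type I receptor typical of endothelium, stood at 0.38 (FDR = 0.0501). Of the 4 other Smads, Smad3 was called (0.60 ± 0.10, FDR = 3.3e-04), the shared partner Smad4 was not, at 0.49 (FDR = 3.8e-05, 1.406-fold), and Smad9, the third BMP Smad, stood at -0.19 (FDR = 0.38). Of the 9 intracellular regulators of Smads, 3 were higher, with Zfp423 furthest (1.11 ± 0.13, FDR = 1.7e-05), and Ski and Skil, which repress Smad-driven transcription.

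Of 10 further target genes 2 were called, Dlx3 (0.79 ± 0.20, FDR = 0.0067) and Msx1 (0.70 ± 0.23, FDR = 0.031). The remaining Id genes were not, with Id2 at 0.15 (FDR = 0.33) and Id4 at 0.00 (FDR = 0.995). Against the contralateral knee none of the 10 targets was called, with or without contralateral replicate 1.

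**Figure D5:**
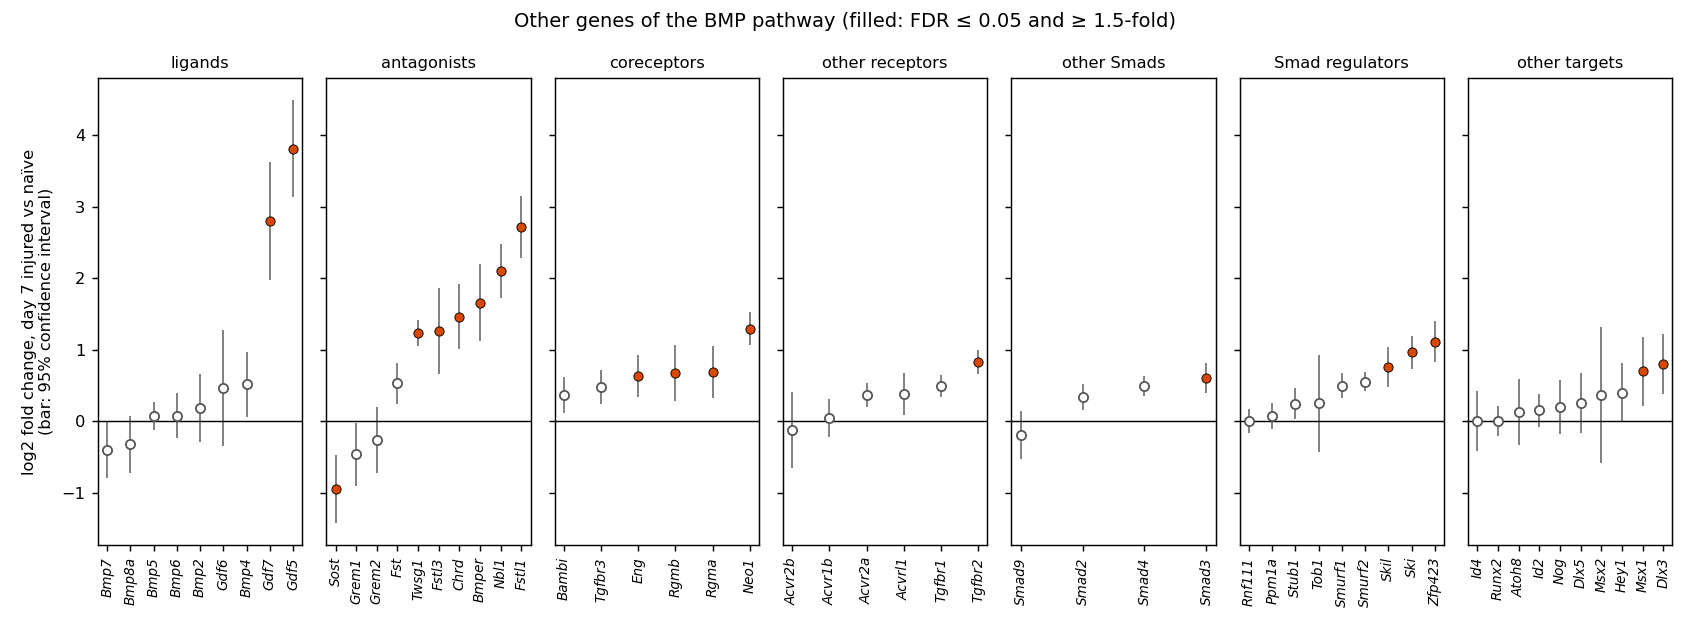
Change in day 7 injured against naïve cartilage (vertical axis, log2 scale) for 54 other genes of the pathway, by list, with 95% confidence intervals as bars and filled points where the gene was called. The 19 genes called higher include 6 antagonists, 4 coreceptors and 2 ligands, and Sost is the 1 gene called lower.

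Markers of other cell types moved with these genes. The synovial fibroblast list had 7 of 8 genes called higher in day 7 injured against naïve cartilage, and its summed level was 14720 ± 3439 CPM (SD, n = 6) in naïve and 76170 ± 5576 CPM (SD, n = 3) in day 7 injured libraries, with Col1a1 the highest in CPM. Col1a1, a collagen gene of bone as well as of fibrous tissue, is also in the osteoblast list, and without it the fibroblast sum was 2306 ± 678 CPM in naïve and 25290 ± 1927 CPM in day 7 injured libraries. The osteoblast sum without it was 710.9 ± 126.3 and 812.2 ± 46.4 CPM in the same groups. Per library at day 7 the fibroblast sum with Col1a1 ran from 71130 to 82160 CPM in injured and from 17090 to 56590 CPM in contralateral cartilage. The endothelial list had 5 of 10 called higher, from 383.5 ± 28.9 to 574.1 ± 53.4 CPM, with Pecam1 the highest in CPM. The chondrocyte list had 4 of 10 called higher (Acan, Comp, Col11a1 and Sox9), from 5793 ± 1239 to 8995 ± 1002 CPM. Against the contralateral knee 7 of 8 fibroblast, 3 of 10 endothelial and 5 of 10 chondrocyte markers were called higher (7, 4 and 4 without contralateral replicate 1). Against naïve cartilage, 2 of 8 osteoblast markers (Col1a1 and Ibsp), 1 of 6 osteoclast markers (Ctsk) and 0 of 8 macrophage markers were higher. Called lower were 4 of 7 erythroid, 2 of 8 neutrophil, 2 of 5 adipocyte, 1 of 7 skeletal muscle, 1 of 5 B cell and 0 of 6 proliferation markers. The erythroid sum went from 34470 to 22510 ± 5466 CPM (SD, n = 3) and that of the neutrophil list, in which Ngp had the highest CPM, from 12370 to 9182 CPM. Endothelial cells and fibroblasts express BMP receptors too, and the part of these cells in the changes of the 10 genes was not tested.

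Over the 18 libraries, the genes whose log2 CPM followed each of the 10 most closely were found among 15990 genes with a mean of at least 1 CPM. They were Creb3l2 and Slc30a4 for Acvr1 (Pearson's r = 0.98 for both), Cdon and Prrx1 for Bmpr1a (0.99 and 0.98), Col5a1 and Scarf2 for Smad1 (0.99 for both), Tspan3 and Plpp1 for Smad5 (0.98 for both) and Rbms2 and Map1b for Bmpr2 (0.98 and 0.97). They were Trabd2b and Il33 for Bmpr1b (0.92 and 0.91), Nr2f6 and Snx8 for Id3 (0.95 and 0.94), Rdh10 and Gadd45g for Smad7 (0.92 and 0.88), Plaa and Sema6b for Id1 (0.85 for both) and C9orf72 and Nos3 for Smad6 (0.84 and 0.83). The points share the 5 groups and the scaling of the libraries. Over the 17 libraries without contralateral replicate 1 of day 7, these values moved by at most 0.02 except for Snx8, C9orf72 and Nr2f6 (0.89, 0.82 and 0.92).

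Once the group means were taken away, some pairs that were close over all libraries were still close and others were not. Values within groups are given for 18 libraries and then for the 17 without day 7 contralateral replicate 1. Smad7 followed Id3 (r = 0.79 and 0.73) and Id1 (0.78 for both), and Acvr1 followed Smad5 (0.77 and 0.80) and Smad1 (0.71 and 0.70). Smad1 followed Smad5 (0.73 and 0.56) and Bmpr1a followed Bmpr2 (0.73 and 0.82). Acvr1 and Bmpr1a went from 0.93 over all libraries to 0.33 and 0.44 within groups, Bmpr1a and Smad1 from 0.84 to -0.04 and 0.16, and Bmpr1a and Smad5 from 0.87 to 0.33 and 0.68. The opposite course of Bmpr2 and Id3 (-0.65) rested on the replicate left out (-0.14 without it).

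The members also varied with the summed markers of other cell types within groups. Id3 (0.73) and Bmpr2 (-0.72) varied with the erythroid list, but at 0.41 and -0.41 without day 7 contralateral replicate 1, which holds the highest erythroid sum (64490 CPM). Smad1 varied with the chondrocyte list (0.68 and 0.42 without it) and the synovial fibroblast list (0.64 and 0.37), and Smad5 with the same lists (0.64 and 0.27, 0.61 and 0.25). Id3 varied with them too, at 0.62 and 0.57, and at -0.05 for both without that library. With Col1a1 left out of the fibroblast list the values were 0.80 and 0.68 for Smad1, 0.77 and 0.61 for Smad5 and 0.76 and 0.52 for Id3, so those of Id3 without that library depend on this gene. For the other members the same list without Col1a1 gave 0.64 and 0.63 for Acvr1, 0.64 and 0.65 for Id1 and 0.54 and 0.64 for Bmpr1b. It gave 0.66 and 0.60 for Smad6, 0.66 and 0.50 for Smad7, -0.02 and 0.22 for Bmpr1a and -0.30 and 0.38 for Bmpr2. Values of Id1 (-0.05 and -0.39 with Col1a1), Bmpr1b (-0.13 and -0.29) and Smad7 (0.21 and -0.31) depend on this gene too. The osteoblast list without Col1a1 gave -0.67 and -0.65 for Id1, -0.62 and -0.49 for Smad7 and -0.48 and -0.51 for Bmpr1b. It gave positive values for Bmpr1a (0.195 and 0.06) and Bmpr2 (0.46 and 0.12). Bmpr2 varied with the chondrocyte list at -0.34 over all libraries and at 0.74 without that one, and with the endothelial list at 0.48 and 0.78. Values moved less for the endothelial list with Smad6 (0.65 and 0.68), Bmpr1a (0.61 and 0.65) and Acvr1 (0.53 and 0.54). Smad1 (0.53 and 0.63) and Smad5 (0.54 and 0.66) varied with it too. Bmpr1b stood at 0.29 and 0.28 there, and Smad7 (-0.15 and -0.20), Id1 (-0.16 and -0.18) and Id3 (-0.01 and -0.07) lay below 0. The macrophage list gave 0.56 and 0.53 for Id1, 0.52 and 0.51 for Smad1 and 0.48 and 0.52 for Id3. For Bmpr1a it gave -0.32 and -0.28, with the other members between. The neutrophil list gave -0.66 and -0.57 for Smad7. All of these are descriptions over libraries that share depth, composition and in part mice, and their part in the results was not tested.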

How the data were processed

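Cartilage RNA (stranded total RNA, ribosomal RNA depleted) of 18 libraries was analysed. The authors pseudo-aligned reads with Kallisto to the mouse transcriptome (GRCm38 by the methods, although the submitters' processing notes list GRCh38) and deposited estimated counts and TPM per transcript, both unnormalized between libraries. The methods state that 1 ACL library with low mapping was removed, without naming it. Of 137436 transcripts, 135107 (98.3%) matched GENCODE genes of GRCm38, and the rest held 0.667% to 3.90% of counts. Estimated counts were summed per gene and rounded.

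Tests were run with edgeR 4.0.16 (quasi-likelihood, TMM, filterByExpr, group means without covariates, and without the term for shared mouse pools of the study's limma model, since the labels name no pools) in R 4.3.3, with Benjamini-Hochberg adjustment over all genes tested. The 15 libraries without the day 7 contralateral group were fitted for comparisons that do not use it, and all 18 otherwise. Each standard error is the change on the log2 scale divided by the square root of F. CPM used TMM factors over 18 libraries, and log2 CPM a prior count of 1. The script was tested on simulated data of independent libraries, with as many genes raised as lowered. Such data do not test the effects of scaling or of shared mice. Alternatives were DESeq2 1.42.0, limma-voom (limma 3.58.1), other scaling, filters, thresholds and libraries. Correlations and marker counts without day 7 contralateral replicate 1, list sums without Col1a1 and scaling by library totals were chosen after seeing the data. The genes, lists and tests were chosen with earlier results of these data known. All 10 genes were named, with the called genes furthest from 0 and the counts of each pathway list, and the 2 genes of highest Pearson correlation with each of the 10. Further pathway genes (such as those not called) were named after their values were seen. Promoter windows came from RefSeq (GRCm38.p6). Columns were read with pandas 2.3.3 and figures drawn with matplotlib 3.10.9.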

Additional observations from a re-analysis of the deposited data

Results flagged for a closer look

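In the naïve group of 6 libraries, replicate 5 was farther from the others than Dixon's 95% limit for Id3, at 43.0 CPM against 30.9 to 34.8 CPM in the other 5, and for the ratio of Id1 and Id3 to Smad1 and Smad5, at 3.54 against 2.55 to 2.77. The 2 values share the Id3 reading. Chance alone exceeds this limit in about 1 of 20 such groups, and 15 were examined. Id3 was called against naïve cartilage at day 7 with this library in the group.

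The effect of injury, injured minus contralateral, differed between day 7 and day 1 by the contrast across all 18 libraries for Acvr1 (1.06 on the log2 scale), Bmpr1a (0.88) and Smad1 (0.70), in each case with the larger effect at day 7. For each of these genes the day 7 injured libraries lay above all 3 contralateral ones. At day 1 the injured and contralateral libraries overlapped for Acvr1 and Smad1 and did not for Bmpr1a.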

How the results depend on the processing

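No paired analysis was possible because the labels give no replicate numbers or pools, although injured and contralateral libraries of a day share mice. Counts of calls over all genes moved by more than 1.5 times in several settings. Against the contralateral knee, 686 lower became 279 without day 7 injured replicate 3 and 1305 with library totals. In the contrast of day 7 with day 1, 791 larger became 396 without day 7 injured replicate 3. Totals of called members and of called pathway genes, both directions together, kept within 1.5 times of the reported value in all but a few settings. With no fold limit 5 of the 10 genes were called higher between day 7 and day 1 injured cartilage, beside 3427 higher (16.2%) and 1733 lower of all genes, and with library totals and no scaling factor, a setting chosen after seeing the data, 1. The genes with a larger injury effect at day 7 numbered 1 to 4 when 1 library was left out (1.82% to 4.49% of all genes). With library totals they numbered 0 (1.19% of all genes). In day 7 injured against naïve cartilage, Id3 lost its call in the fit of 18 libraries (FDR = 0.0502), without day 7 injured replicate 1 (0.54) and with library totals (0.32), and Smad5 with library totals (0.39). Bmpr2 lost its call against the contralateral knee with library totals (0.61, FDR = 0.076). The length offset removed the call of Bmpr1a in the contrast of day 7 with day 1 (0.70, FDR = 0.14), and DESeq2 added Bmpr1b (1.53, FDR = 0.026).

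Bmpr2 against day 1 injured cartilage passed the FDR limit but not the fold limit in the main fit (0.41, FDR = 0.022). It changed sign with library totals. Sign changes were found only for values that were called in neither fit. With library totals these were Smad7 (-0.083) and Id1 (-0.11) at day 7 against naïve, Smad6 (-0.049) and Id1 (-0.0234) against contralateral, and Bmpr2 (-0.0336), Smad6 (-0.39), Smad7 (-0.36), Id1 (-0.22) and Id3 (-0.0397) against day 1 injured cartilage. They were Id1 (0.11) in day 1 injured, Smad7 (0.0406) and Id3 (0.0023) in day 1 contralateral and Smad5 (-0.0468), Smad7 (-0.18) and Id1 (-0.0875) in day 7 contralateral against naïve cartilage, and Smad7 (-0.14) and Id1 (-0.15) in the contrast of day 7 with day 1. With the length offset they were Smad7 (-0.19) and Id3 (0.0222) against contralateral, Smad6 (-0.0815) and Smad7 (-0.0941) against day 1 injured cartilage, and Smad7 (-0.47) in the contrast. With limma-voom they were Id3 against contralateral (0.13) and Smad7 in day 7 contralateral against naïve (-0.0059). With a minimum of 1 CPM in 3 libraries they were Smad6 against day 1 injured cartilage (-0.0005) and Smad7 in the contrast (-0.0034).

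Leaving out 1 library at a time changed signs as follows. Against contralateral cartilage at day 7, Smad6 ran from -0.0611 to 0.21, Id1 from -0.0502 to 0.24 and Id3 from -0.26 to 0.51. Against day 1 injured cartilage Smad6 ran from -0.081 to 0.19 and Smad7 from -0.0103 to 0.26. In the contrast of day 7 with day 1, Smad7 ran from -0.19 to 0.25, Id1 from -0.21 to 0.24 and Id3 from -0.60 to 0.23. Between injured and contralateral cartilage at day 1, Smad7 ran from -0.0144 to 0.37 and Id1 from -0.14 to 0.31. In day 1 injured against naïve, Smad7 ran from -0.0289 to 0.24 and Id1 from -0.21 to 0.11. In day 1 contralateral against naïve, Bmpr1b ran from -0.40 to 0.27, Smad6 from -0.14 to 0.12, Smad7 from -0.23 to 0.0899, Id1 from -0.33 to 0.13 and Id3 from -0.34 to 0.0913. In day 7 contralateral against naïve, Smad7 ran from -0.18 to 0.15 and Id1 from -0.0265 to 0.25. The causes of these changes were not tested. Depth limits Bmpr1b most, with 20 to 163 counts per library.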
